A study of Mus musculus with 6 samples.

Results

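The cytosolic ribosomal protein genes were taken as the protein-coding genes whose symbol is Rpl, Rps or Rplp followed by a number and at most one letter a, x or l, with Rpsa, and without the kinase genes of the Rps6k series and the pseudogenes. This rule took 80 of the 54146 genes counted, among them 46 genes of the large subunit, 31 of the small subunit and the 3 stalk genes Rplp0, Rplp1 and Rplp2. They were followed in NIH/3T3, a mouse fibroblast line that was derived from embryos and grows without limit, as Mki67-/- clone 1, Mki67-/- clone 2 and wild type (WT), with 2 libraries in each of the 3 groups. Mki67 encodes Ki-67, a protein of proliferating cells that covers mitotic chromosomes. Each knockout group is a single clone, and the sources used here do not give how it was made. The labels give the strain as Swiss albino mouse and the donor stage as embryo for all groups, and they name no agent that the groups received. Titles and tissue labels name NIH/3T3 fibroblasts, whereas the RNA protocol text names the mammary tumour line 4T1. Whether the libraries of a group stem from separate cultures is not stated, and the spread behind the p-values is that between these libraries, which may be technical.

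Each ribosome holds one copy of most of these proteins, built in the nucleolus onto ribosomal RNA made by RNA polymerases I and III. Their mRNAs belong to the TOP class, which begins with a cytosine followed by a run of pyrimidines and whose translation rises and falls with mTORC1 activity through the repressor Larp1. In mammals these genes have left many processed pseudogenes, near copies that lie elsewhere in the genome and can take or share their reads.

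The 6 libraries held 3873249 to 19678782 gene counts, the fewest in WT replicate 1. Between 28.3% and 30.3% of the reads of a library mapped to several places and were not counted for any gene. Mki67 had 4.24, 4.58, 4.32 and 7.69 scaled CPM in the knockout libraries and 49.1 and 55.1 in the WT libraries, a log2 fold change of −3.35 ± 0.18 (SE; adjusted p = 1.12e-08, edgeR's quasi-likelihood test). Scaled CPM relate the counts of a gene to the library total multiplied by its TMM factor. All 9 fibroblast markers were detected in every group, with a summed level of 7314 to 8074 scaled CPM in the knockout libraries and 9616 to 11230 in the WT libraries. Of these markers 1 was called higher and 5 lower in the knockout clones, against 16.6% and 18.2% of all genes tested. The part of these markers in the results below was not tested. The 7 epithelial or mammary tumour markers summed to at most 1.16 scaled CPM in any library, and Epcam, Krt19 and Esrp1 had no count. The 5 blood cell markers summed to 11.8 to 18.2 scaled CPM in the knockout libraries and to 15.8 to 20.1 in the WT libraries, with Adgre1 and Cd3e at 0. The 4 endothelial markers summed to 1.26 to 1.73 scaled CPM in the knockout libraries and to 4.07 to 4.50 in the WT libraries, with Kdr at 0.

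As a group, the ribosomal protein genes moved little. They held 2.51% and 2.31% of the gene counts in clone 1, 2.51% and 2.70% in clone 2, and 2.87% and 2.61% in WT. Both libraries of clone 1 lay below both WT libraries, and those of clone 2 lay on either side of the lower WT library. In bulk RNA, fewer cells that express a gene and less of its RNA per cell cannot be told apart. Of the 80 genes, 78 passed the filter on low counts. Of those, 3 were called higher and 17 lower in the clones, by the mean of both against WT (adjusted p below 0.05), against 16.6% and 18.2% of all 13120 genes tested. The share called lower was thus near that of all genes, and the share called higher below it. Their median log2 fold change was −0.07, and that of all genes tested was 0.0049. The ribosomal protein genes of WT replicate 2 were lower than those of WT replicate 1 by a median of 0.21 on the log2 scale, and the median change was 0.0047 without WT replicate 1 and −0.22 without WT replicate 2. Without the shallow WT replicate 1, 3 genes were called higher and 12 lower, against 13.6% and 16.7% of all genes, and Rps6, Rpl11, Rpl14, Rps15, Rps28 and Rpl31 lost their calls. With trends on transcript length and GC content removed, 9 were called higher and 15 lower, against 17.4% and 17.3% of all genes, and 5 calls were lost, among them Rpl5, Rpl13a, Rpl14 and Rps15.

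In clone 1, 3 genes were called higher and 16 lower, against 15.2% and 16.5% of all genes. In clone 2, 3 were called higher and 12 lower, against 12.9% and 14.5%. Both contrasts share the WT libraries. The 12 genes called lower in clone 2 became 5 without WT replicate 1, 20 without WT replicate 2, 2 without clone 2 replicate 1 and 4 without clone 2 replicate 2. In the same settings the share of all genes called lower in clone 2 was 13.9%, 13.1%, 6.70% and 8.13%, so the calls among all genes became fewer too without a library of clone 2. The 16 of clone 1 became 5 without clone 1 replicate 2, where 9.35% of all genes were called lower. Without any single library of either clone, fewer ribosomal protein genes were called higher in clone 1 and in clone 2. The share of all genes called higher fell as well in these settings. Without WT replicate 2, fewer ribosomal protein genes were called higher in clone 1, while the share of all genes called higher there rose. The median log2 fold change in clone 1 was −0.25 without WT replicate 2, against 0.056 for all genes. Without clone 1 replicate 1 and 2 it was −0.19 and −0.03, against −0.014 and 0.0022. In clone 2, without its replicate 1 and 2, it was −0.05 and −0.11, against −0.016 and −0.015. Rpl5 and Rpl27a were called higher, and 11 genes lower, in each clone, and no gene was called in opposite directions. Rps7 (higher) and 5 genes called lower, among them Rpl11, Rpl14 and Rps15, were called in clone 1 alone, and Rpl31 (higher) and Rps28 (lower) in clone 2 alone. No ribosomal protein gene differed between clone 2 and clone 1 by edgeR's adjusted p, and none did with DESeq2 or limma-voom. Among all genes the adjusted calls were 1.18% higher and 2.36% lower in clone 2. At an unadjusted p below 0.05, 8 of the 78 genes differed, against 15.5% of all genes. So a call in one clone alone does not show that the clones differed. All 4 knockout libraries lay above both WT libraries for 5 ribosomal protein genes, against 25.1% of all genes, and below both for 24, against 24.7%.

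**Figure D1:**
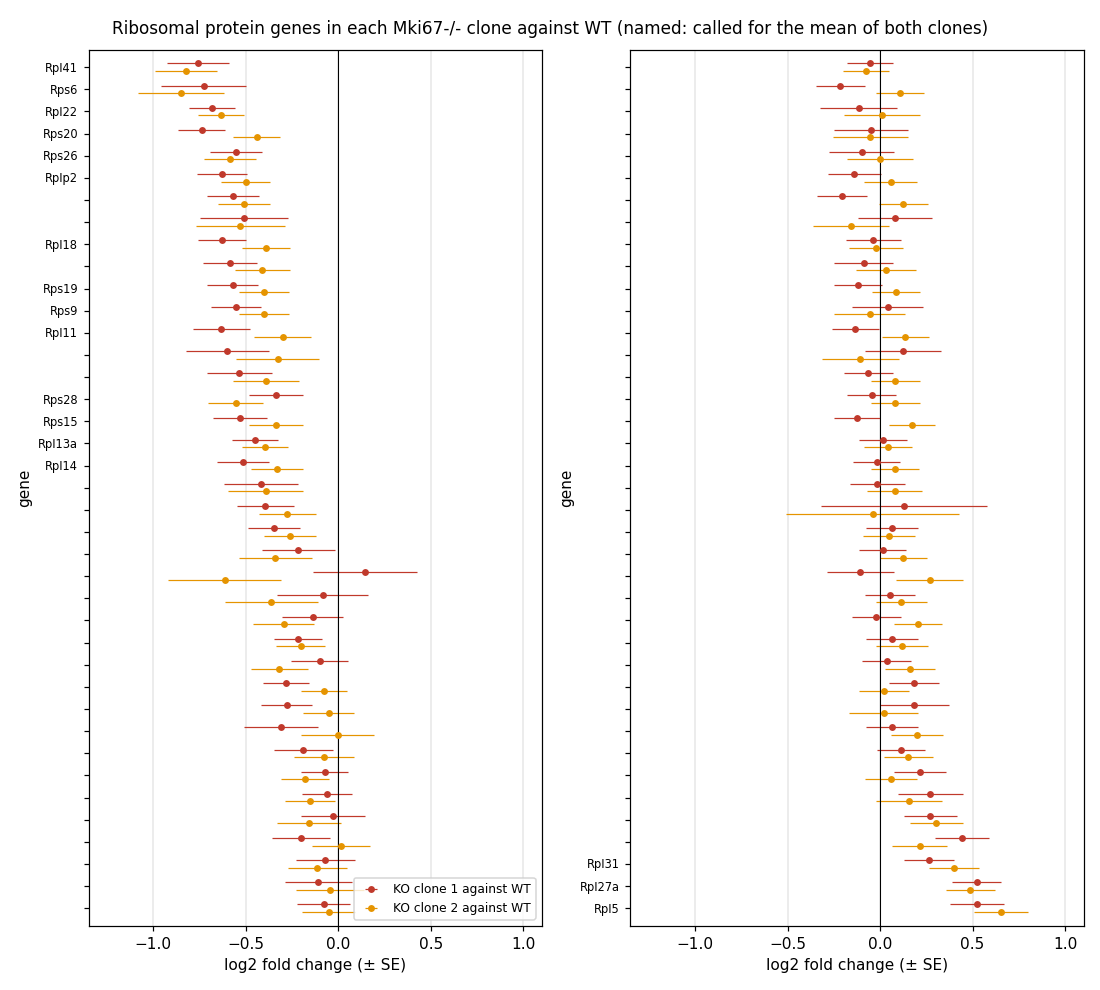
Log2 fold change against WT (x axis, ± SE) of the 78 tested ribosomal protein genes, ordered by the mean of both clones with most called genes named, in clone 1 (red) and clone 2 (orange). Most points lie within 0.25 of 0, and the clones lie close to each other for most genes. The points of the 17 genes called lower reach −0.85 (Rps6, clone 2), and those of the 3 called higher reach 0.65 (Rpl5, clone 2).

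The small subunit held more of the falls. Of its 31 tested genes 10 were called lower and 0 higher, with a median log2 fold change of −0.18. Of the 44 tested genes of the large subunit 6 were called lower and 3 higher, with a median of −0.02. Of the 3 stalk genes Rplp2 was called lower, and Rplp1 changed by −0.34 ± 0.13 and Rplp0 by −0.09 ± 0.14. Among all genes tested, 18.2% were called lower and 16.6% higher. The difference between the subunits was not tested.

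Among genes of the small subunit, Rps6, the substrate of the S6 kinases that mTORC1 activates, had 11.6 and 10.6 scaled CPM in clone 1, 8.88 and 11.5 in clone 2, and 24.2 and 14.6 in WT. All knockout libraries lay below the WT libraries, and WT replicate 1 was far above WT replicate 2. Its log2 fold change (chromosome 4, 86854660 to 86857412, minus strand, GRCm38) was −0.79 ± 0.20 (adjusted p = 0.00822), and without WT replicate 1 it was −0.46 (adjusted p = 0.0641).
Rps20, of the head of the small subunit, had 258 and 233 scaled CPM in clone 1, 289 and 314 in clone 2, and 417 and 403 in WT. The groups did not overlap, and clone 1 was lowest. The gene, at the start of chromosome 4 (3831334 to 3835665, minus strand), fell by 0.59 ± 0.11 on the log2 scale (adjusted p = 0.000904).
Rps26, which lies along the exit path of the mRNA, had 694 and 585 scaled CPM in clone 1, 610 and 641 in clone 2, and 993 and 884 in WT. It fell by 0.57 ± 0.12 on the log2 scale (adjusted p = 0.00239; chromosome 10, 128624534 to 128626747, minus strand). The highest knockout library lay below the lower WT library. Of the other genes called lower, Rps9, Rps15, Rps19 and Rps28 changed by −0.44 to −0.49. Rps19 is the gene most often mutated in Diamond-Blackfan anaemia in humans. Rps28 (chromosome 17, 33819027 to 33824562, minus strand) had 68.5 and 60.9 scaled CPM in clone 1, 52.1 and 59.1 in clone 2, and 92.0 and 73.1 in WT.

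Among genes of the large subunit, Rpl41, which encodes a very short basic peptide at the face between the subunits, had 445 and 351 scaled CPM in clone 1, 370 and 391 in clone 2, and 784 and 563 in WT. The WT libraries were far apart, and both lay above every knockout library. The change was −0.79 ± 0.14 (adjusted p = 0.00079; chromosome 10, 128548114 to 128549305, minus strand). Rpl22, which binds structured RNA and is not needed for growth of most cells, had 282 and 254 scaled CPM in clone 1, 277 and 276 in clone 2, and 428 and 432 in WT. Here replicates sat close together, and the change was −0.66 ± 0.11 (adjusted p = 0.000348; chromosome 4, 152325742 to 152334071, plus strand). Rpl22l1, its near copy, which the naming rule leaves out and which Rpl22 is known to repress in mouse, had 69.0 and 64.8 scaled CPM in clone 1, 69.8 and 69.6 in clone 2, and 44.8 and 37.0 in WT, and rose by 0.76 ± 0.13 on the log2 scale (adjusted p = 0.000459). Whether the changes of this pair are linked was not tested. Rpl18 had 253 and 229, 272 and 296, and 394 and 352 scaled CPM in clone 1, clone 2 and WT, a change of −0.51 ± 0.11 (adjusted p = 0.00294; chromosome 7, 45715457 to 45720836, plus strand). Rpl11, Rpl13a and Rpl14 changed by −0.47, −0.43 and −0.42. The stalk gene Rplp2, whose protein recruits the elongation factors, had 205 and 198 scaled CPM in clone 1, 209 and 231 in clone 2, and 340 and 284 in WT. The change was −0.57 ± 0.11 (adjusted p = 0.00173; chromosome 7, 141447370 to 141451585, plus strand).

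Higher in the knockout clones were 3 genes, all of the large subunit. Rpl5, which with Rpl11 and 5S ribosomal RNA binds and restrains Mdm2, had 49.5 and 51.5 scaled CPM in clone 1, 59.8 and 50.7 in clone 2, and 37.7 and 33.2 in WT. It rose by 0.59 ± 0.13 on the log2 scale (adjusted p = 0.00364; chromosome 5, 107900502 to 107909005, plus strand), whereas Rpl11 fell. With trends on length and GC content removed, Rpl5 was at 0.31 (adjusted p = 0.0715, edgeR) and was not called. Rpl27a had 154 and 131 scaled CPM in clone 1, 134 and 143 in clone 2, and 101 and 96.7 in WT, a change of 0.51 ± 0.12 (adjusted p = 0.00458; chromosome 7, 109519147 to 109522367, plus strand). Rpl31, at the mouth of the exit tunnel of the nascent chain, had 54.4 and 49.9, 59.0 and 55.6, and 44.0 and 43.1 scaled CPM in clone 1, clone 2 and WT, a change of 0.33 ± 0.12 (adjusted p = 0.0446; chromosome 1, 39367842 to 39371911, plus strand). No knockout library overlapped a WT library for these genes, and the call of Rpl31 was kept under 5 of 18 other settings, the fewest of the 20 calls.

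**Figure D2:**
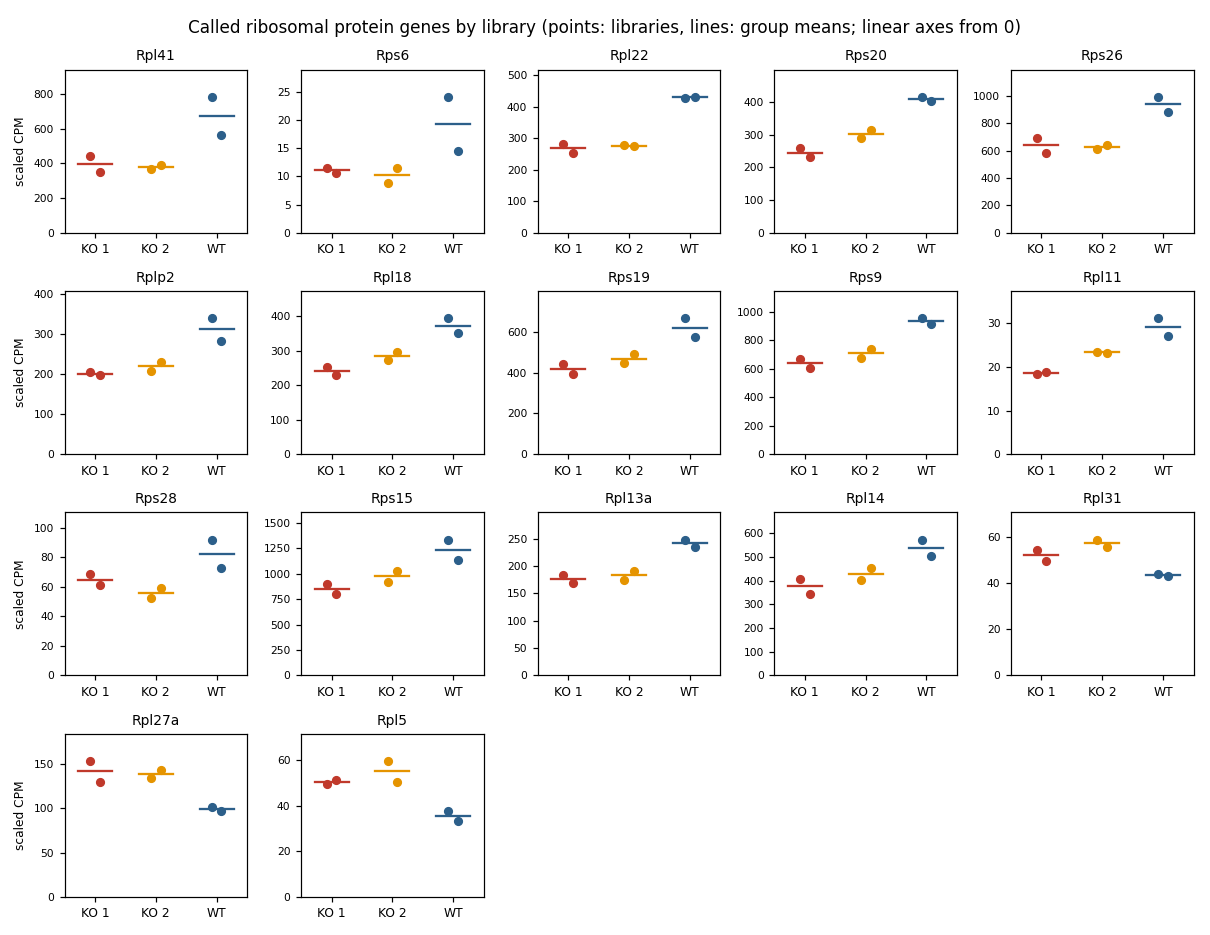
Scaled CPM (y axes, linear from 0) of 17 called ribosomal protein genes in clone 1 (KO 1), clone 2 (KO 2) and WT; each point is a library and each line a group mean. Both libraries of each clone lie below both WT libraries in the 14 panels of genes called lower, and above them in the panels of Rpl31, Rpl27a and Rpl5.

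The falls were grouped by position in the genome. Of the 17 genes called lower, 15 lie on chromosomes 4, 7 and 10, which together hold 23 of the 78 tested genes; these chromosomes were picked out after the values were seen. On chromosome 4 all 5 tested ribosomal protein genes were called lower, on chromosome 7 it was 7 of 14, and on chromosome 10 it was 3 of 4. Of the 55 genes on other chromosomes 2 were called lower and 2 higher. The other genes of these chromosomes were shifted the same way. The 784 other tested genes of chromosome 4 had a median log2 fold change of −0.37, and 45.7% of them were called lower. The 987 of chromosome 7 had a median of −0.26 with 36.3% called lower, and the 632 of chromosome 10 a median of −0.11 with 21.7% called lower. In each clone by itself the medians of chromosome 4 were −0.37 and −0.36, and those of chromosome 7 −0.26 and −0.26. Some other chromosomes were shifted as well. The 509 other tested genes of chromosome 13 had a median of −0.30 with 36.0% called lower, and its 1 tested ribosomal protein gene was not called. Chromosomes 9 and 16 had medians of −0.10 and −0.08, with 20.6% and 22.3% called lower. There, 1 of 7 and 0 of 3 ribosomal protein genes were called lower. Of the 31 small-subunit genes 15 lie on chromosomes 4, 7 and 10, against 7 of the 44 large-subunit genes.

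**Figure D3:**
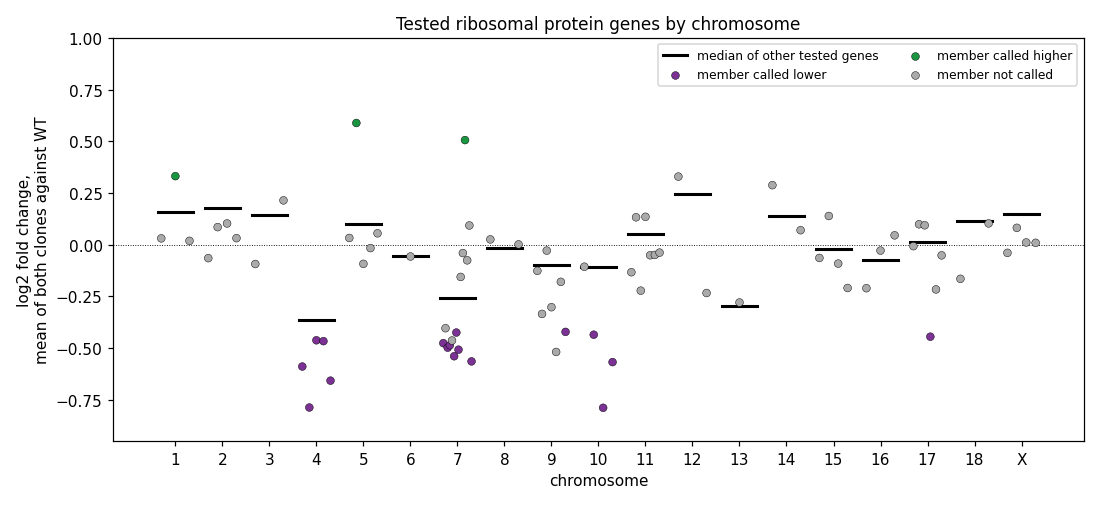
Log2 fold change of the mean of both clones against WT (y axis) for each tested ribosomal protein gene by chromosome (x axis, genes in order of position); black bars mark the median of the other tested genes of that chromosome. Genes called lower (purple) gather on chromosomes 4, 7 and 10, and the bars of chromosomes 4 (−0.37) and 7 (−0.26) lie low as well. So does the bar of chromosome 13 (−0.30), whose 1 ribosomal protein gene was not called.

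A closer view came from up to 25 of the nearest tested genes on each side of a ribosomal protein gene, with other ribosomal protein genes left out. Near a chromosome end there were fewer, with 27 in all for Rps20, 36 for Rps9, 41 for Rps26 and 43 for Rpl41. The neighbours of Rps6 spanned 29.0 megabases. For 16 of the 17 genes called lower the median of these neighbours was below 0, and for 13 of the 17 it lay within 0.25 of the gene's own log2 fold change. The neighbours of Rpl22 had a median of −0.63, with 34 of 50 called lower, against −0.66 for Rpl22 itself. Those of Rplp2 had −0.63 with 34 of 50 called lower, those of Rpl13a −0.55 with 33 of 50, those of Rpl18 −0.51 with 27 of 50, and those of Rpl11 −0.47 with 32 of 50. The neighbours of Rpl5, which rose, had a median of 0.46, with 17 of 50 called higher. Across the 78 genes the gene's own change and the neighbours' median correlated with Pearson's r = 0.741 and Spearman's rho = 0.717, a description over genes that share the 6 libraries. The SD of the changes over the 78 genes was 0.281, and the SD of their differences from the neighbours' median was 0.196.

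Some genes departed from their neighbours. Rps6 changed by −0.79 beside a neighbours' median of −0.05, Rps28 by −0.45 beside 0.12, Rps20 by −0.59 beside −0.17, Rpl41 by −0.79 beside −0.37, and Rpl27a by 0.51 beside 0.13. In a fit that took off the regional median of each library, a setting chosen after seeing the data, 1 ribosomal protein gene was called higher and 4 lower, against 12% and 14.6% of all genes tested. Of the 20 calls, Rpl27a (0.40 ± 0.11, adjusted p = 0.0205, edgeR), Rpl41 (−0.46 ± 0.12, adjusted p = 0.0174), Rps20 (−0.57 ± 0.14, adjusted p = 0.0111) and Rps28 (−0.52 ± 0.10, adjusted p = 0.00362) remained. Rps27a, whose protein is made fused to ubiquitin, gained a call at −0.55 ± 0.17 (adjusted p = 0.0370), against −0.13 without that step. Rps6 was at −0.74 ± 0.26 (adjusted p = 0.0538). The other 15 lost their calls, with Rpl22 at −0.03 ± 0.09. The median of the small-subunit genes was −0.09 in that fit, and that of the large-subunit genes −0.02.

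**Figure D4:**
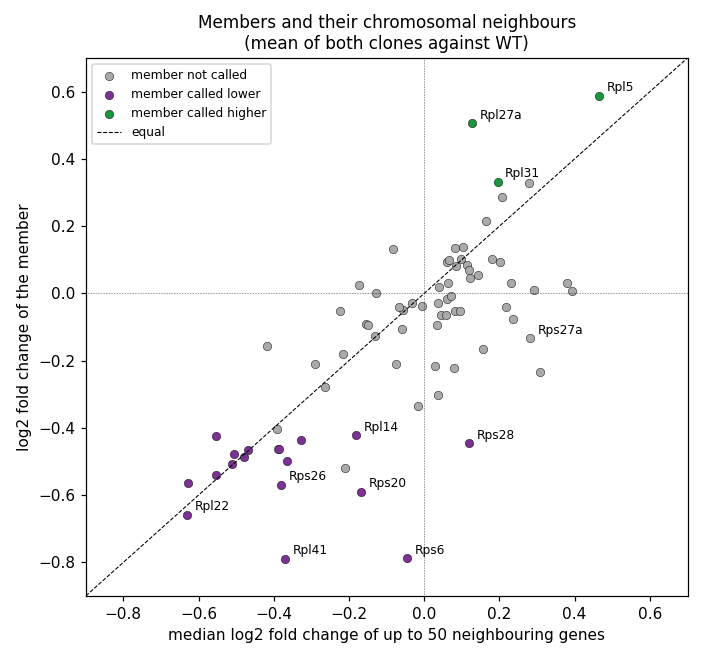
Log2 fold change of each tested ribosomal protein gene (y axis) against the median of up to 50 neighbouring genes (x axis), mean of both clones against WT; the dashed line marks equal values. Most genes called lower (purple) lie near the line, while Rps6, Rps28, Rps20 and Rpl41 lie well below it and Rpl27a (green) above it.

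The start of a TOP mRNA carries its control element, so the sequence at the start site was read for the genes called highest and lowest that have a single start in RefSeq (GRCm38.p6). The 30 bases shown are given 5′ to 3′ on the strand of the gene, and capitals mark the longest run of C or T between 20 bases before and 30 bases after the start.
Rps6 (chr4:86857349-86857378, minus strand): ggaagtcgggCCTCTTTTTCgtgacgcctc
Rps26 (chr10:128626484-128626513, minus strand): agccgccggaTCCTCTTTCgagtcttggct
Rpl41 (chr10:128549155-128549184, minus strand): acacacgggccggCTCggaagtgacgacac
Rpl18 (chr7:45718062-45718091, plus strand): tcgcaggccgCTCTTTCCCCgcccactccg
Rplp2 (chr7:141447636-141447665, plus strand): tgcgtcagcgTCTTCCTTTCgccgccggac
Rpl5 (chr5:107900498-107900527, plus strand): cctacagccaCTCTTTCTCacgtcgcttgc
Rpl27a (chr7:109519186-109519215, plus strand): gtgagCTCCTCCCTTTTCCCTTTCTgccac
Rpl31 (chr1:39367825-39367854, plus strand): tcgccacaCCTCTTCCTCCTCgcctccccg
The run is 10 bases long in Rps6, Rpl18 and Rplp2 and 20 in Rpl27a. Genes that fell and genes that rose thus both carry one around the start. In Rpl5 the run of 9 bases begins 20 bases before the RefSeq start, and in Rpl31 that of 13 begins 18 before. Both end before that start, outside an mRNA that begins there. In GENCODE M21 the 5′ end of Rpl5 (107900502) lies upstream of its run, and that of Rpl31 (39367842) lies within its run. An mRNA that begins at the GENCODE end would thus hold the run of Rpl5 and a part of that of Rpl31. The window of Rpl41 holds no run above 3. In GENCODE M21 the 5′ end of Rpl41 (128549305) lies upstream of the bases shown, and the sequence there was not read. RefSeq start sites were found for 60 of the 80 genes. A run of at least 8 bases of C or T on the sense strand was present in that window for 33 of 60 (55.0%), against 21.5% of all 27025 genes of the table. The letters CTTTC on the sense strand, which can lie inside such a run, were present for 22 of 60 (36.7%), against 7.66% of all genes. A run was present for 8 of 13 genes called lower, 3 of 3 called higher and 22 of 42 not called. A match is a stretch of letters, not a shown site.

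Levels per length differed widely between genes in all groups. On a scale per kilobase of exon (TPM), the highest was Rplp1, with 5527 ± 387 in clone 1, 5581 ± 189 in clone 2 and 5420 ± 421 in WT (SD, n = 2 each). Next were Rpl8, next to the site of peptide bond formation, with 4256 ± 193, 3839 ± 174 and 3334 ± 185 TPM in clone 1, clone 2 and WT, and Rps15 with 2383 ± 144 in clone 1, 2536 ± 104 in clone 2 and 2574 ± 146 in WT. The 10 highest held 72.6% of the summed TPM of the tested ribosomal protein genes in clone 1, 72.9% in clone 2 and 74.3% in WT. The lowest was Rpl24, with 2.16 ± 0.443 TPM in clone 1, 1.82 ± 0.573 in clone 2 and 1.76 ± 0.796 in WT and 99 reads in all 6 libraries. Rps29 had 10.4 ± 1.47 TPM in clone 1, 5.70 ± 1.91 in clone 2 and 7.19 ± 0.316 in WT, and Rps13 had 9.93 ± 0.189 in clone 1, 9.65 ± 0.231 in clone 2 and 8.22 ± 1.15 in WT. Per length of the longest coding transcript in WT, Rplp1, Rpl8 and Rpl24 kept ranks 1, 2 and 78. Rps15 went from rank 3 to 4, Rps29 from 77 to 75 and Rps13 from 76 to 72. TPM serve here for order within a group, since their sum is shared with all other RNA. The order was nearly the same in the groups, with rank correlations over the 78 genes of 0.991 between clone 1 and WT and 0.990 between clone 2 and WT.

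The levels went with how much of a transcript is unique. Of the 50-base windows of the longest coding transcript, between 4.91% and 100% were found in the annotated transcripts of no other gene, with a median of 52.6%. The 35 genes with under 50% unique windows had a median of 34.0 TPM over the 6 libraries and the 43 others 165 TPM, and Spearman's rho over the 78 genes was 0.506 (0.619 with windows of 100 bases). Rpl24 had 18.3% unique windows, Rps6 15.4% and Rpl5 6.16%, while Rpl8 had 93.5%. Windows of Rps2 were shared with 69 pseudogenes. Of the reads at Rps2 and its 11 named pseudogenes 79.6% were counted at the pseudogenes, and the shares were 22.5% for Rpl19, 20.8% for Rpl3 and 14.0% for Rpl34. The 35 genes with under 50% unique windows had 2 calls higher and 5 lower, and the 43 others 1 higher and 12 lower. Of all genes tested 16.6% were called higher and 18.2% lower. The median number of reads was 3514 for the genes with under 50% unique windows and 22531 for the others. Adding the reads of named pseudogenes left 2 calls higher and 17 lower, against 16.7% and 18.2% of all genes.

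**Figure D5:**
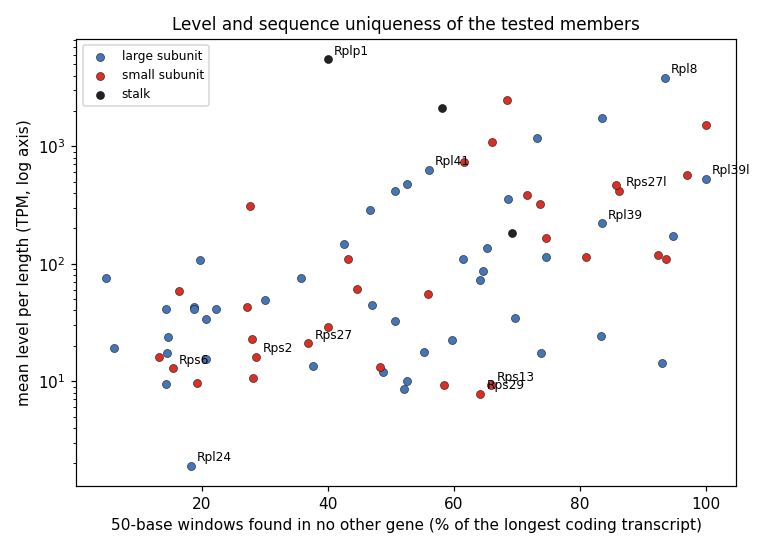
Mean level over the 6 libraries (TPM, log y axis) against the share of 50-base windows found in no other gene (x axis, percent) for the 78 tested ribosomal protein genes by subunit. Levels rise with the share of unique windows (Spearman's rho 0.506), with Rplp1 far above others of its share and Rpl24 lowest.

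Genes with a paralogue in the set were measured unevenly. Rpl39l, a copy of Rpl39 that is enriched in mouse testis, had 591, 539, 539 and 524 TPM in the knockout libraries and 509 and 474 in WT, and all its windows were unique. Rpl39, with 83.5% unique windows, had 227, 211, 241 and 271 TPM in the knockout libraries and 172 and 206 in WT. The order of these paralogues depended on the length used. Per length of the longest coding transcript, Rpl39l had 922 ± 27.7 TPM in clone 1, 931 ± 7.12 in clone 2 and 983 ± 47.9 in WT, and Rpl39 had 810 ± 12.7 in clone 1, 1018 ± 95.7 in clone 2 and 858 ± 111 in WT (SD, n = 2 each). Rps27l, a target of p53, had 441, 414, 415 and 429 TPM in the knockout libraries and 438 and 375 in WT, while Rps27 had 24.3, 23.8, 21.1 and 19.8 TPM in the knockout libraries and 18.7 and 18.4 in WT, with 36.9% unique windows against 86.3% for Rps27l. The difference in TPM between Rps27l and Rps27 thus stood beside a difference in uniqueness, whose part in the order was not tested. In scaled CPM, Rpl39l changed by −0.21 ± 0.11 (adjusted p = 0.164), Rpl39 by −0.04 ± 0.12 (0.823), Rps27l by −0.30 ± 0.12 (0.0658) and Rps27 by −0.09 ± 0.15 (0.676), by edgeR. With trends on length and GC content removed, Rps27l was called lower at −0.80 and Rpl39l at −0.52. Rpl3l, of heart and skeletal muscle, had 5 counts in all, and Rpl10l, of testis, had 0 counts, which allows up to 0.152 CPM in the deepest library and 0.775 in the shallowest. Rpl3 changed by −0.21 ± 0.13 (0.244), Rpl10 by 0.08 ± 0.16 (0.736) and Rps4x by 0.01 ± 0.11 (0.958).

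Counts that ignore strand gave another picture for a few genes. There, reads over 2 genes on opposite strands are not counted, and 6 genes kept under 80% of the reads they had in the stranded counts, among them Rpl5 39.2%, Rpl23a 45.6%, Rpl32 57.8%, Rpl31 57.9% and Rpl30 78.9%. Exons of Rpl5 overlap 953 bases of Fam69a on the opposite strand, and those of Rpl31 420 bases of Tbc1d8. Without strand, Rpl5 was at −0.32 (adjusted p = 0.114, edgeR) in place of 0.59, and Rpl31 at 0.37 (adjusted p = 0.0558). Rpl28 passed at −0.47 (adjusted p = 0.0485), against −0.40 (0.0913) with strand, and Rpl38 was at 0.01 against −0.04, both not called. The call of Rpl5 thus rested on the stranded counts, and the part of the overlap with Fam69a in it was not tested.

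Other genes of the pathway were set beside these from lists. The counts below are for the mean of both clones against WT. There, 16.6% of all genes tested were called higher and 18.2% lower. The regional median was not taken off the counts and values of the list genes. The part of their position in these changes was not tested. Of 25 further TOP mRNA genes 5 were called higher and 3 lower. Npm1, the nucleolar chaperone nucleophosmin, rose by 0.66 ± 0.15 on the log2 scale, and Eif3k changed by −0.52 ± 0.11. Of 80 factors of rRNA processing and ribosome assembly 19 were called higher and 7 lower, with a median of 0.09. Nop58, a core protein of box C/D snoRNPs, had 44.5 and 65.6 scaled CPM in clone 1, 47.7 and 54.8 in clone 2, and 26.6 and 27.1 in WT, a change of 0.98 ± 0.17. Nvl, an ATPase of large-subunit assembly, rose by 1.00 ± 0.18 and Mphosph10 by 1.04 ± 0.20, while Noc2l changed by −0.76 ± 0.13, Nol6 by −0.58 ± 0.13 and Mrto4 by −0.57 ± 0.12. Of the 7 called lower these 3 lie on chromosome 4, and the other 4 lie on chromosomes 7, 11, 13 and 17. Among 21 genes of the RNA polymerase I machinery 2 were called higher and 5 lower. Taf1d, of the promoter selectivity factor, had 103 and 100 scaled CPM in clone 1, 139 and 139 in clone 2, and 305 and 221 in WT, a change of −1.14 ± 0.13, and the termination factor Ttf1 changed by 0.84 ± 0.22. Of 36 tested initiation factors 9 were called higher, among them Eif2s2 (0.93 ± 0.16) and Eif5 (0.73 ± 0.13), and 5 lower, among them Eif3i (−0.51 ± 0.12).

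Of 31 tested genes of mTORC1 and TOP control 1 was called higher and 7 lower, against 16.6% and 18.2% of all genes tested. Larp4, an mRNA-binding La-related protein, rose by 1.27 ± 0.19. Sesn2, a leucine sensor that restrains mTORC1, had 46.0 and 42.4 scaled CPM in clone 1, 43.7 and 47.5 in clone 2, and 90.1 and 92.6 in WT, and fell by 1.03 ± 0.11 on the log2 scale. Mtor changed by −0.58 ± 0.11 and Akt1s1, an inhibitor within mTORC1, by −0.60 ± 0.13. These values too hold any shift of the region around the gene. Of 74 tested mitochondrial ribosomal protein genes 5 were called higher and 9 lower, against the same 16.6% and 18.2% of all genes. Their median was −0.06. Mrps30 fell by 0.93 ± 0.11 and Mrpl47 rose by 0.76 ± 0.16. Just outside the naming rule, Fau, which encodes a small-subunit protein fused to a ubiquitin-like one, rose by 0.50 ± 0.14, and Rack1, on the head of the small subunit, changed by −0.02 ± 0.14. The values of Rpl36al, Rpl7l1 and Rps3a1 were 0.24 ± 0.16, −0.12 ± 0.11 and −0.01 ± 0.11, none of them called, and Rps27rt was not tested. All genes given here as risen or fallen had edgeR adjusted p-values below 0.05.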

How the data were processed

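Total RNA was depleted of ribosomal RNA and sequenced with a strand-marking kit, per the labels' protocols. Per the submitters' processing notes, FastQC, STAR 2.6.0c and GRCm38 were used; the sources used here do not give the annotation release. The authors deposited raw counts of reads for each Ensembl gene, with no normalization and with columns for unstranded, forward and reverse reads. The reverse-strand counts were used. Reads naming no gene (46.6% to 50.5% per library) stayed out of library sizes and tests. Symbols, positions and lengths came from GENCODE M21, which matched 54079 of 54146 identifiers.

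The ribosomal protein genes, the pathway lists and the settings were chosen with earlier results of these data known. Genes with a minimum count of 10 (filterByExpr) were scaled by TMM (factors 0.951 to 1.03) and fitted with edgeR 4.0.16 (R 4.3.3), quasi-likelihood, 1 coefficient per group, 6 libraries, 3 residual degrees of freedom. Calls used a Benjamini-Hochberg adjusted p below 0.05 over 13120 genes. SE is the log2 fold change over the root of F. Alternatives used DESeq2 1.42.0 and limma 3.58.1; steps were tested on simulated counts. Windows shared between transcripts were counted on both strands. The replicates of a group were not one library deposited again: chi-square over its degrees of freedom was 19.0 (clone 1), 21.3 (clone 2) and 12.1 (WT). A floor of 3 counts was 0.152 to 0.775 CPM; floors and depth cover counting error only. Named were Mki67, the 8 largest called rises and falls, the 3 highest and lowest per length in WT, paralogues, genes whose unstranded result differed, up to 3 called genes per list and direction, and symbols just outside the rule; other names were chosen after their values were seen. A few genes counted here are not reported by name.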

Additional observations from a re-analysis of the deposited data

Results flagged for a closer look

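No ribosomal protein gene was called different between the clones, and groups of 2 libraries allow no check for a library far from the others. Among the genes of the lists, 2 differed between clone 2 and clone 1 by edgeR's quasi-likelihood test. Mrps25, of the small subunit of the mitochondrial ribosome, had 65.7 and 65.1 scaled CPM in clone 2 and 45.6 and 40.6 in clone 1, beside 63.2 and 56.2 in WT, a log2 fold change of 0.60 ± 0.13 in clone 2 against clone 1 (adjusted p = 0.0185). Thy1, a fibroblast marker of the cell surface, had 87.7 and 87.3 scaled CPM in clone 2 and 131 and 122 in clone 1, beside 215 and 215 in WT, a log2 fold change of −0.54 ± 0.12 (adjusted p = 0.0248).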

How the results depend on the processing

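Removal of the regional median, chosen after seeing the data, changed the most: 1 ribosomal protein gene was called higher and 4 lower in the mean contrast, 1 and 3 in clone 1, and 0 and 1 in clone 2. The shares of all genes were 12% and 14.6% in the mean contrast, 11% and 12.9% in clone 1, and 8.86% and 11% in clone 2. With the regional median removed, 6 of the called values turned direction in the mean contrast, 2 in clone 1 and 7 in clone 2. The farthest in the mean was that of Rpl13a (0.13), with Rpl11 at 0.016 and Rps19 at 0.0060. The values of Rplp2 turned to 0.064 (0.13 in clone 2), of Rpl18 to 0.011 (0.11 in clone 2) and of Rpl22 to 0.013 in clone 2. The number called higher in the mean contrast was 5 without scaling beyond library totals, 1 with strand ignored and 9 with length and GC trends removed. The shares of all genes there were 19.8%, 15.7% and 17.4%. The last 2 settings gave 1 and 8 in clone 2, against 12.1% and 14.1% of all genes. With strand ignored, Rpl5 turned to −0.32 (−0.42 in clone 1, −0.22 in clone 2). Between the clones, in settings that kept all 6 libraries, 1 gene was called higher with length and GC trends removed, against 3.17% of all genes. With no low-count filter 1 (Rps29) was called lower, against 2.12% of all genes. Calls between the clones also arose in some settings that left out a WT library. For the other turned values the cause was not tested.

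Leaving out each library in turn changed the number of genes called, among the ribosomal protein genes and among all genes tested. In these settings the median log2 fold change of the ribosomal protein genes ran from −0.22 to 0.0047 in the mean contrast. It ran from −0.25 to 0.000297 in clone 1 and from −0.21 to 0.048 in clone 2. The main fit did not pair libraries by replicate number. Deviations of replicate 1 from its group mean correlated at 0.24 (clone 1 and WT), −0.08 (clone 2 and WT) and −0.10 (clone 2 and clone 1). Over the ribosomal protein genes alone these correlations were 0.20, 0.17 and −0.06. With 2 libraries per group, such values cannot decide whether the libraries were paired. With a replicate block, 2 genes were called higher and 17 lower in the mean contrast, against 18.6% and 18.5% of all genes. Of the 20 calls there, 10 were kept under all 17 alternatives other than the regional one, and 3 (Rpl27a, Rpl41 and Rps20) under all 18. Depth limits genes such as Rpl24, with 99 reads, and the SE of genes not called ran from 0.11 to 0.42.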
